A study of Mus musculus with 42 samples.

Results

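The genes described here are the protein-coding genes of mouse neuronal cultures, ranked by how much RNA they gave in the 3 euploid culture libraries and then asked whether the same gene's promoter carried a peak of open chromatin or of SMARCA2/4 binding in the adult euploid hippocampus. Of 52636 gene lines counted, 21896 were protein-coding and all of these were kept. No count was seen in any euploid library for 4534 of them, and the 17362 with at least 1 count were divided into 10 deciles by their mean CPM (the counts of a gene when all genes of the library add up to 1000000). A promoter peak was any peak that the authors' annotation placed in the proximal promoter, or in the promoter within 1 or 3 kb, of the gene. A gene was then placed in 1 of 4 classes, with both kinds of promoter peak, with an ATAC peak only, with a SMARCA2/4 peak only, or with none.

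The cultures were made from forebrain at embryonic day 16, and the labels give them as male and female mice pooled. They were treated with AraC, an inhibitor of dividing cells, to limit glia. By the paper's methods the cells were collected after days in culture, so their RNA is not that of tissue at embryonic day 16. The adult tissue was hippocampus of male mice. SMARCA2/4 chromatin immunoprecipitation followed by sequencing (ChIP-seq) used whole hippocampal tissue at 6 to 8 weeks, with 1 hippocampus from each of 2 animals in every library and 4 immunoprecipitated and 4 input libraries per genotype. ATAC-seq, in which a transposase inserts adapters where DNA is accessible, used nuclei sorted for the neuronal protein NeuN, with 3 libraries per genotype. Mice were on a mixed DBA/2J and B6EiC3Sn/J background. The genotypes were euploid (the reference group), Ts65Dn, a mouse with a partial trisomy that is used as a model of Down syndrome, and Ts65Dn;Brwd1+/-, the same trisomy with 1 Brwd1 allele disrupted. Each peak list was a single list per genotype and assay, so its replicate error is unknown. Age, brain region, cell makeup and preparation all differ between the RNA and the chromatin samples and cannot be told apart.

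SMARCA2 and SMARCA4 are the alternative ATPases of the BAF (SWI/SNF) complex, which uses ATP to slide or eject nucleosomes and so makes promoters and enhancers reachable. Most mammalian promoters of broadly used genes are rich in CpG dinucleotides and lack nucleosomes just before the start of transcription. Promoters of tissue-restricted genes are more often poor in CpG and are open only in the cells that use the gene, so an assay on 1 cell type sees the promoters of that cell type and little of its neighbours.

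The 250 bases before the annotated start of 6 genes are printed here because each stands for a class or gene group met below, and because they differ in CpG content. They are from mm10 (GRCm38), 5′ to 3′ on the strand of the gene, with every CG dinucleotide in capitals. Psap, which encodes the lysosomal precursor prosaposin and had both peaks, was read from chr10:60277378-60277627 (plus strand). Cox6a1, a nuclear-encoded subunit of cytochrome c oxidase with an ATAC peak only, was read from chr5:115348982-115349231 (minus strand). Vim, the intermediate filament protein vimentin, with a SMARCA2/4 peak only, was read from chr2:13573702-13573951 (plus strand). Apoe, the main lipoprotein of astrocytes, and Gad1, an enzyme that makes the transmitter GABA, had neither peak and were read from chr7:19699189-19699438 (minus strand) and chr2:70561792-70562041 (plus strand). Fos, a transcription factor switched on by neuronal activity, had both peaks at a low RNA level and was read from chr12:85473640-85473889 (plus strand).
Psap: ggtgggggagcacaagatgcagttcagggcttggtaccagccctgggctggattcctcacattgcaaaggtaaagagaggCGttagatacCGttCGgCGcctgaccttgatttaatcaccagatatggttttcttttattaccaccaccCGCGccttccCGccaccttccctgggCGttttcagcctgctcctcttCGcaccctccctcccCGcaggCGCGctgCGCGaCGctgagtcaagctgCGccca
Cox6a1: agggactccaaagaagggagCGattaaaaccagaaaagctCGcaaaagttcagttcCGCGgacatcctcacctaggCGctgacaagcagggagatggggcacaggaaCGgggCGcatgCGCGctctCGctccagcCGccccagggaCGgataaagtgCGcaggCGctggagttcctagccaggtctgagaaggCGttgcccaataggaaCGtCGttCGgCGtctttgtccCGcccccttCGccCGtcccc
Vim: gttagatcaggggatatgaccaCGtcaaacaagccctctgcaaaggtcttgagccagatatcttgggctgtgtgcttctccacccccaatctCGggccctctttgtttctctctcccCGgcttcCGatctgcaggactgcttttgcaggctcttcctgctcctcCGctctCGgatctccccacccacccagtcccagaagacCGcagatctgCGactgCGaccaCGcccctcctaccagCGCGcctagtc
Apoe: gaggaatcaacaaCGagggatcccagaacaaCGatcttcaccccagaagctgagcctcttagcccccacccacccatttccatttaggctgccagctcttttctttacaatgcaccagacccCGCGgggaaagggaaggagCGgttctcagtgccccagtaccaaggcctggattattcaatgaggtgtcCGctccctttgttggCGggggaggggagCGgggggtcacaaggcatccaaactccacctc
Gad1: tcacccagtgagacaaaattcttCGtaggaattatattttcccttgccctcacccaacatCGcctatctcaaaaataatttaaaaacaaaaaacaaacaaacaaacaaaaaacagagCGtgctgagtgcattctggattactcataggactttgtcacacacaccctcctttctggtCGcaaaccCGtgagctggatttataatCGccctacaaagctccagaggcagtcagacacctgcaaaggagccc
Fos: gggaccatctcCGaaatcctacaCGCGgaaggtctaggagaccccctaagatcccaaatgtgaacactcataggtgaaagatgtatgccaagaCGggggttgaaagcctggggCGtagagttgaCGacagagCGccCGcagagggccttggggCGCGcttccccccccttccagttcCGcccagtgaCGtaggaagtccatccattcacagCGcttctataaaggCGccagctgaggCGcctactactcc
These 250 bases held 16 CG dinucleotides in Psap, 22 in Cox6a1, 12 in Vim, 8 in Apoe, 6 in Gad1 and 15 in Fos.

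The 3 euploid libraries held 20663650, 23207352 and 21816843 counts in genes. The euploid lists held 15521 ATAC peaks and 22667 SMARCA2/4 peaks. A promoter ATAC peak was present for 8384 of the 21896 protein-coding genes (38.3%) and a promoter SMARCA2/4 peak for 5619 (25.7%). The Ts65Dn and Ts65Dn;Brwd1+/- lists differed in size from these, with 29195 and 30244 ATAC peaks but only 1290 and 1873 SMARCA2/4 peaks, and were used as further lists and not as a comparison of genotypes. The culture held cells other than neurons by its markers. Per gene, astrocyte markers had a median of 84.9 CPM per kb of exon and pan-neuronal markers 59.3, whereas microglial and endothelial markers had medians of 0.41 and 0.08.

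The share of promoters with an ATAC peak rose steeply over the lower deciles and then stopped rising, whereas the share with a SMARCA2/4 peak went on rising to the top. Among genes with no count, 0.93% had an ATAC peak, and in deciles 1 to 3 the share was 3.17, 7.37 and 17.7%. It was 42.1% in decile 4, 55.2% in decile 5, 64.1% in decile 6 and 69.4% in decile 7. From there the share was flat, at 73.1% in decile 8 (95% Wilson interval 71.0 to 75.1), 74.3% in decile 9 and 74.1% in decile 10 (72.0 to 76.1). These intervals, here and below, cover counting error only. The SMARCA2/4 share was 1.12% among genes with no count and 24.6% in decile 4, and in deciles 8, 9 and 10 it was 46.3, 53.9 (51.6 to 56.3) and 65.1% (62.8 to 67.3). The intervals of deciles 9 and 10 do not overlap for SMARCA2/4 but do overlap for ATAC. The SMARCA2/4 list holds peaks with q-values up to 0.153, and 87.8% of its peaks are under 0.05, the limit that the study's methods state. With only peaks of q under 0.001 the top-decile SMARCA2/4 share was 38.8%.

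Ranking the genes in each euploid library by itself gave nearly the same shares. In the top decile the ATAC share was 74.3% ± 0.59 (SD, n = 3 libraries), the SMARCA2/4 share 65.2% ± 0.48 and the share with neither 13.4% ± 0.27. The top decile ran from 131 to 8086 CPM. It held 1737 genes, and 1482 genes were in the top decile of all 3 libraries while 1821 were in that of at least 1. This spread is that of the RNA ranking alone, since the peak lists have no replicates.

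**Figure D1:**
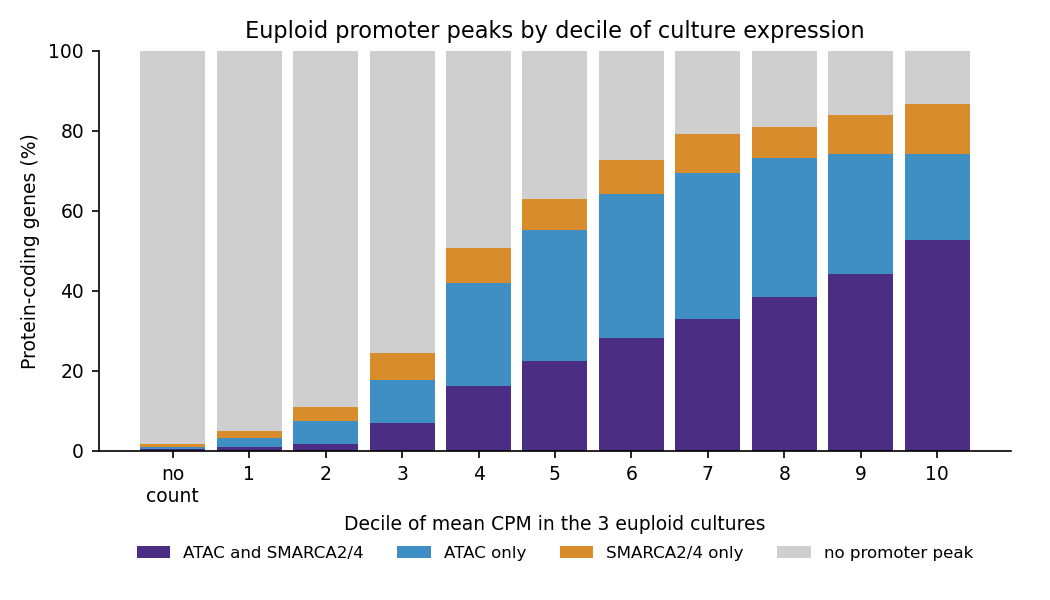
Share of protein-coding genes in each promoter class (%, vertical axis) for genes with no count and for expression deciles 1 to 10 (horizontal axis, mean CPM of 3 euploid culture libraries). The class with neither peak shrinks from 98.4% to 13.4%, and the class with both peaks reaches 52.6% in the top decile.

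Genes of higher CPM deciles were also longer, and longer transcripts give more reads. The median exon length was 1690 bp among genes with no count and 6135 bp in the top decile. With genes ranked by CPM per kb of exon instead, the ATAC shares of deciles 8 to 10 were 70.4, 71.1 and 72.5% and the SMARCA2/4 shares 47.5, 50.3 and 57.0%. The SMARCA2/4 share of the top decile was thus lower than with CPM, and still the highest of the 10. Counting only peaks in the proximal promoter, the nearest of the annotation's 3 promoter regions, the ATAC shares were 67.9, 67.5 and 66.0% and the SMARCA2/4 shares 31.2, 32.9 and 41.9%.

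The lists of the trisomic genotypes, set against the same euploid expression ranking, gave higher ATAC shares, with small steps between the upper deciles. In the Ts65Dn list deciles 8, 9 and 10 had ATAC promoter peaks at 84.2, 85.7 and 86.8% of genes, and in the Ts65Dn;Brwd1+/- list at 84.1, 85.1 and 86.1%. The SMARCA2/4 lists of these genotypes were too short to compare in level, with shares of 5.07 and 7.60% in deciles 9 and 10 for Ts65Dn and 5.53 and 9.10% for Ts65Dn;Brwd1+/-. In both, decile 10 was again above decile 9, but only 31.8% of the Ts65Dn peaks and 58.2% of the Ts65Dn;Brwd1+/- peaks had q under 0.05. The lists differ in size, and the part of that in the difference between genotypes was not tested.

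**Figure D2:**
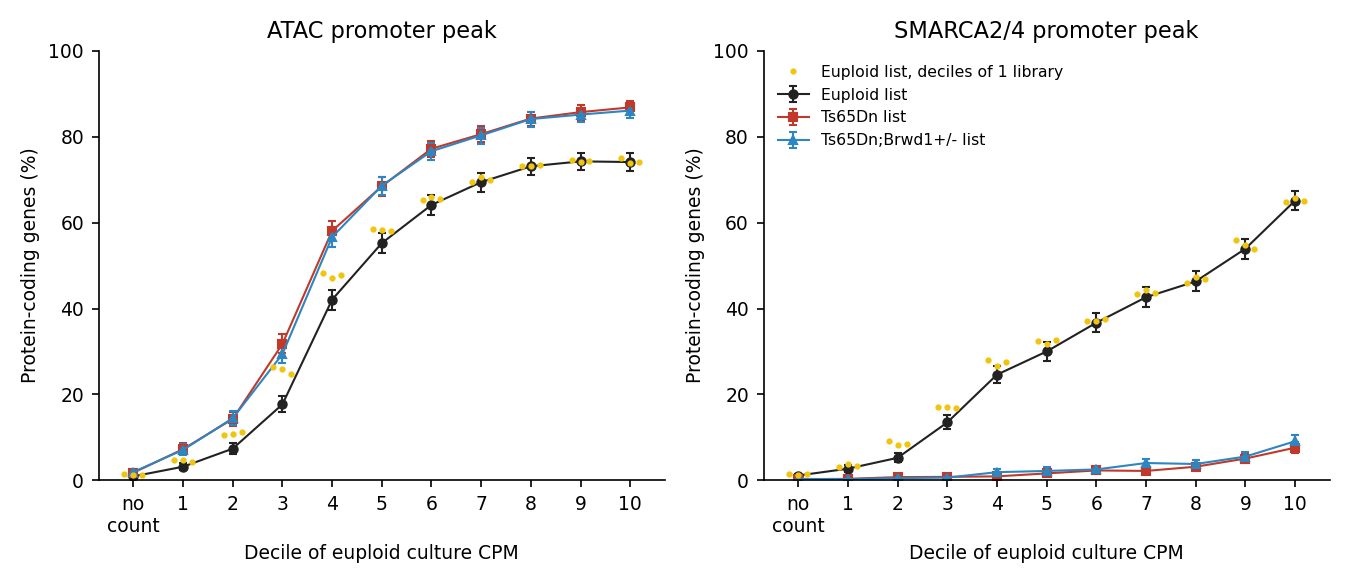
Share of protein-coding genes with a promoter ATAC peak (left) or SMARCA2/4 peak (right), in %, by euploid expression decile (0 is no count), for the peak lists of the 3 genotypes with 95% Wilson intervals. Small points are the euploid list with deciles taken from each euploid library alone; the ATAC curves change little from decile 8 on while the euploid SMARCA2/4 curve goes on to 65.1%.

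How strong a peak was said little about how much RNA the gene gave. Across the 8342 genes with a count and an ATAC promoter peak, Spearman's rank correlation between the fold enrichment of the best peak and CPM was 0.06, and for SMARCA2/4 it was 0.15 over 5568 genes. Over the 4239 genes with both, the ATAC and SMARCA2/4 enrichments had a rank correlation of −0.07. Genes are not independent replicates and the points share 1 list and 1 ranking, so these are descriptions. The number of peaks at a promoter did differ along the deciles, for both marks. SMARCA2/4 peaks were short, with a median width of 93 bp against 337 bp for ATAC, so that 1 promoter could hold several. Of genes with any SMARCA2/4 peak, 33.0% had several in decile 4 and 63.6% in decile 10, where the mean was 2.83 per gene. Of genes with an ATAC peak, 5.48% had several in decile 4 and 18.5% in decile 10.

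The class with both peaks held 4258 genes, with a median of 52.7 CPM, or 9.37 CPM per kb. The 4126 genes with an ATAC peak only and the 1361 with a SMARCA2/4 peak only had closely similar medians, 29.8 and 29.1 CPM. The 12151 genes with neither had a median of 0.08 CPM. SMARCA2/4 promoters were mostly open ones, since 75.8% of them had an ATAC peak, whereas 50.8% of ATAC promoters had a SMARCA2/4 peak. That share itself varied with expression, from 38.2% of open promoters in decile 4 to 70.9% in decile 10.

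Promoter sequence differed between the classes in features that the class rule did not use. In the 300 bp around the start (250 before and 50 after) the median number of CpG dinucleotides was 23 in the class with both peaks, 20 with ATAC only, 19 with SMARCA2/4 only and 5 with neither. Within the top decile these medians were 24, 23, 24 and 20, so that the classes lay closer together among highly expressed genes. Genes with no count had a median of 2, and the no-count genes with both peaks a median of 8.

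Most CpG-rich promoters of genes with low counts had no peak. In deciles 1 to 3, promoters with over 25 CpG had an ATAC peak in 21.6% of cases and neither peak in 71.6%, and promoters with 0 to 5 CpG had an ATAC peak in 4.48%. In the top decile, 75.8% of promoters with over 25 CpG (757 genes) had an ATAC peak and 69.1% a SMARCA2/4 peak. Top-decile promoters with 0 to 5 CpG (118 genes) had them in 60.2 and 61.9% of cases. With 6 to 15 CpG (337 genes) the shares were 69.1 and 66.8%, and with 16 to 25 CpG (518 genes) 79.0 and 59.8%. The SMARCA2/4 share was thus close to the ATAC share in the groups of up to 15 CpG, and did not rise steadily with CpG.

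Short sequence motifs were counted in the same 300 bp, on both strands except for the TATA box. The ETS-type motif CCGGAAG was in 22.4% of ATAC-only promoters, 14.1% of those with both peaks, 9.9% of SMARCA2/4-only promoters and 6.5% of those with neither, against 11.2% of all promoters. Within the top decile the order was the same among classes with a peak, at 18.4, 10.2 and 5.0%, with 9.8% for neither. Along the deciles the motif was most frequent in the middle, at 20.3% in decile 6, and was at 11.3% in decile 10. The GC box GGGCGG was in 68.8% of promoters with both peaks, 64.6% with ATAC only, 59.7% with SMARCA2/4 only and 29.0% with neither (45.4% of all), and it is itself made of G and C and holds a CpG. TATAAA on the strand of the gene, 50 to 11 bases before the start, was in 7.5% of promoters with no count, 1.1% of those with both peaks and 3.1% of all. A match is a run of letters in the sequence and not a bound site.

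Gene lists showed which groups followed the overall relation of expression and promoter peaks and which did not. GABAergic genes had RNA in the cultures but no promoter peak of either kind in the adult lists. All 14 genes were counted, at a median of 14.2 CPM per kb (decile 6.5), and 0 of 14 had an ATAC or a SMARCA2/4 peak, in the promoter or in any other annotated region. Of all genes in decile 6, 64.1% had an ATAC and 36.7% a SMARCA2/4 promoter peak, and in decile 7 69.4 and 42.6%. Gad1 had 186, 153 and 193 CPM in the 3 euploid libraries and was in the top decile. Gad2, the second GABA-making enzyme, had 104, 77.8 and 92.8 CPM, and Slc32a1, which loads GABA into vesicles, had 120.0, 131 and 118 CPM. The libraries lay close together for each of these genes, so their place in the ranking did not rest on 1 library.

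Neuropeptide and calcium-binding markers of interneurons were in the same position. Sst, the peptide somatostatin, reached the highest level of the list per kb, 73.1 CPM per kb, with 51.3, 50.4 and 56.4 CPM. Calb2 (calretinin) had 53.6, 51.4 and 58.3 CPM and Npy (neuropeptide Y) 14, 12.1 and 16.1 CPM. The longer ATAC lists of the other genotypes held promoter peaks for 4 of the 14 in Ts65Dn (Dlx1, Dlx5, Npy and Calb2) and 2 in Ts65Dn;Brwd1+/- (Dlx5 and Calb2). Dlx1 and Dlx5 are homeodomain factors of the ventral forebrain, where interneurons are born.

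The glutamatergic identity list, at decile 7 by its median, had an ATAC peak at 5 of 12 promoters (41.7%) and a SMARCA2/4 peak at 8 of 12 (66.7%), against 69.4 and 42.6% of all genes in that decile. Slc17a7, the vesicular glutamate transporter of cortical and hippocampal excitatory neurons, had 319.7, 334 and 236 CPM, an ATAC peak at 3.47-fold and 9 promoter SMARCA2/4 peaks, the best at 5.19-fold. Its ATAC peak lay 1659 bp before the start, so that it had none within 1 kb. Bhlhe22, a factor of projection neurons, had 108, 102 and 85.5 CPM and both peaks. Neurod6, of the same broad kind, had 67.2, 63 and 52.8 CPM and an ATAC peak only, and Neurod2 had 30.1, 36.2 and 28 CPM and a SMARCA2/4 peak only. Fezf2 and Cux2, which mark neocortical layers, had neither, at 19.8, 24.5 and 26.8 CPM and 47.7, 57.3 and 48.1 CPM.

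Genes that all neurons use had high levels. The pan-neuronal list had a median of 59.3 CPM per kb, in decile 10, with 8 of 12 ATAC (66.7%) and 11 of 12 SMARCA2/4 promoters (91.7%), against 74.1 and 65.1% of all genes in that decile. The exception was Gap43, a growth-cone protein, at 567, 585 and 508 CPM with no promoter peak in the euploid list or in the ATAC lists of the trisomic genotypes. Elavl3, Rbfox3 and Elavl4, RNA-binding proteins of neurons (Rbfox3 encodes NeuN itself), had SMARCA2/4 peaks only, and all 3 had an ATAC promoter peak in both trisomic lists. Rbfox3 had 112, 138 and 110.3 CPM and 7 promoter SMARCA2/4 peaks, the best at 6.23-fold.

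Release and receptor genes of the synapse lay in the top decile by their medians, where 74.1% of all genes had an ATAC and 65.1% a SMARCA2/4 peak. Of 14 synaptic vesicle genes 9 had an ATAC (64.3%) and 11 a SMARCA2/4 peak (78.6%), at a median of 68.2 CPM per kb. Vamp2, the vesicle SNARE, had 753, 769 and 739 CPM and SMARCA2/4 peaks only, as did Cplx1 (complexin) at 220.3, 229 and 215 CPM. Syn1 (synapsin), on the X chromosome, had 313, 342 and 266 CPM and an ATAC peak only. The 1 gene of this list with neither was Rab3a, a vesicle GTPase listed at 0 in all 3 libraries, with 1.30% of its exon bases shared with other genes. Whether this 0 stands for absent RNA or for reads that were not counted cannot be told from the files. Of 14 glutamate and GABA receptor genes 12 had an ATAC and 11 a SMARCA2/4 peak, and the exception, Gria3, an AMPA receptor subunit also on the X chromosome, had 183, 165 and 164 CPM.

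Genes of newborn neurons were all expressed at high levels but divided in the adult lists. All 12 were in deciles 9 and 10, with a median of 121 CPM per kb, and 7 had an ATAC (58.3%) and 6 a SMARCA2/4 peak (50.0%), against 74.1 and 65.1% of all genes in decile 10. Those with neither were Nnat (neuronatin, 1054, 1086 and 1083 CPM), Dpysl3 (a collapsin response mediator, 1141, 1094 and 970.2 CPM), Dcx (doublecortin, 304, 228 and 255 CPM) and Cd24a (183, 149.6 and 156 CPM). Of these 4, only Dpysl3 had an ATAC promoter peak in the trisomic lists. Tubulin genes of growing axons, Tuba1a, Tubb2a and Tubb2b, had both peaks. Marcksl1 and Stmn1 had an ATAC peak only, at 213, 220.5 and 213 CPM and 129, 135 and 135 CPM.

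Genes of mature hippocampal neurons had peaks about as often as other genes of their level. The list had a median of 5.59 CPM per kb, or decile 5.5, and 7 of 12 had an ATAC peak (58.3%) and 5 of 12 a SMARCA2/4 peak (41.7%), against 55.2 and 30% of all genes in decile 5 and 64.1 and 36.7% in decile 6. Camk2a, the forebrain kinase of synaptic plasticity, was high at 722, 767 and 614 CPM and had both, as did Wfs1 and Hpca. At the other end, Spink8, Tdo2 and Dsp, which mark hippocampal subfields, had ATAC peaks at 0.0968, 0.215 and 0 CPM, 1.06, 0.689 and 0.596 CPM and 0.968, 1.72 and 0.779 CPM. Nptx1, a secreted pentraxin of synapses, had neither peak in the euploid lists at 63.9, 66 and 49.4 CPM, but had an ATAC promoter peak in both trisomic lists.

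The immediate early genes had promoter peaks more often than all genes of their level. These genes are induced within minutes by neuronal activity. Their median level was 4.17 CPM per kb, or decile 4.5, and 13 of 14 had an ATAC and 13 of 14 a SMARCA2/4 promoter peak, against 42.1 and 24.6% of all genes in decile 4 and 55.2 and 30% in decile 5. Fos had 10.9, 11.1 and 11.9 CPM, an ATAC peak of 3.1-fold and a SMARCA2/4 peak of 4.27-fold. Junb had 18.5, 24.4 and 19.4 CPM and 10 promoter SMARCA2/4 peaks, and Jun, the highest of the list per kb, had 84.2, 94 and 95.8 CPM with 1 of each. Egr2 lacked the SMARCA2/4 peak, at 1.74, 1.81 and 1.65 CPM, and Ier2 the ATAC peak, at 7.02, 10.3 and 8.75 CPM.

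Cell cycle genes had nearly the same level, with ATAC peaks at most promoters but a SMARCA2/4 peak at only 1. At a median of 4.22 CPM per kb, 11 of 14 had an ATAC promoter peak (78.6%) and 1 of 14 a SMARCA2/4 promoter peak (7.14%), against 55.2 and 30% of all genes in decile 5, the median decile of the list. Pcna, the replication clamp, had 30.2, 28.1 and 31.4 CPM and an ATAC peak of 8.98-fold, and Mki67, a proliferation marker, had 55.5, 53.3 and 56.3 CPM. Ccnb1 (cyclin B1) was the gene with both, at 6.73, 7.41 and 7.01 CPM, and its SMARCA2/4 enrichment was 2.64-fold. Aurka, Aurkb and Plk1, kinases of mitosis, had neither by the annotation, although Aurka and Plk1 had an ATAC peak within 1 kb of their start. Counted by distance to the start, 13 of 14 had an ATAC peak within 1 kb.

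Astrocyte genes were high in the cultures and mostly without peaks in the adult lists, of which the ATAC one was made from NeuN-sorted nuclei. The list had a median of 84.9 CPM per kb and lay at decile 10 by its median, where 13.4% of all genes had neither peak, and 9 of its 12 genes had neither. Apoe had 2469, 2777 and 3008 CPM, Mlc1 (a membrane protein of astrocyte endfeet) 1359, 1307 and 1529.9 CPM, Gfap 508, 491 and 661 CPM and Aqp4 (the water channel) 367, 238 and 322 CPM. All 4 of these had neither peak in the euploid list and no ATAC promoter peak in the trisomic lists. The 3 with both peaks were Slc1a2, the main glutamate transporter, Clu (clusterin) and Sparcl1, which had 388, 300.2 and 344 CPM, 1992, 2057 and 2242 CPM and 1349, 1105 and 1391 CPM.

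Radial glia and progenitor genes had more SMARCA2/4 than ATAC peaks, 7 (58.3%) against 1 (8.33%) of 12, where of all genes in decile 10, the median decile of the list, 65.1 and 74.1% had them. Vim, Slc1a3, Sox2, Sox9 and Hes1 were among those with a SMARCA2/4 peak only, and Notch1 had both. Fabp7, Nes and Pax6 had neither, at 295, 282 and 316 CPM, 286, 257 and 314 CPM and 63.1, 67.7 and 80.1 CPM. The SMARCA2/4 peaks came from whole tissue, in which glia are present, and the ATAC peaks from neuronal nuclei. The part of this difference in the counts was not tested.

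Markers of other cell types ran from near 0 to the top decile, and are given beside the ATAC and SMARCA2/4 shares of all genes, 7.37 and 5.24% in decile 2, 17.7 and 13.5% in decile 3, 42.1 and 24.6% in decile 4 and 55.2 and 30% in decile 5. The list medians were decile 4 for oligodendrocyte lineage, 3 for microglia, 2.5 for endothelium and pericytes and 5.5 for meninges and fibroblasts. Of 12 oligodendrocyte lineage genes 1 had an ATAC peak (Pdgfra) and 2 a SMARCA2/4 peak (Cnp and Mbp). Olig1, a factor of the lineage, was the highest of the list at 193, 247 and 216 CPM and had neither. Of 12 microglial genes, 2 had an ATAC peak, Aif1 among them, and the other 10 had neither. No endothelial or pericyte gene had a promoter peak, Kdr and Pdgfrb included at 78.7, 81.3 and 88.2 CPM and 54.2, 64 and 67.8 CPM. Of 12 meningeal and fibroblast genes 1 had a SMARCA2/4 peak (Col3a1), while the secreted matrix protein Thbs1 had 1061, 1166 and 1149 CPM with neither.

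Genes of translation and respiration had more ATAC than SMARCA2/4 peaks, with a wider gap than all genes at their levels (73.1 and 46.3% in decile 8, 74.3 and 53.9% in decile 9). Of 47 cytosolic ribosomal protein genes 42 had an ATAC (89.4%) and 18 a SMARCA2/4 peak (38.3%), at a median of 29.6 CPM per kb. Of 35 nuclear genes of the respiratory chain and ATP synthase 29 had an ATAC (82.9%) and 12 a SMARCA2/4 peak (34.3%), at 45.2 CPM per kb. Cox6a1, the highest of these per kb, had 304, 364 and 290.0 CPM and an ATAC peak 5.64-fold above background, 50 bp before its start, in the CpG-rich stretch printed above. The ribosomal genes with neither were Rpl19, Rpl32, Rps4x, Rps25 and Rps28, and the respiratory ones Cox4i1, Ndufa2, Uqcrb and Uqcrc1. Cox4i1 (249, 263 and 252 CPM) had peaks of both kinds within 1 kb of its start that the annotation did not give to it.

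The genes of the BAF complex itself were expressed throughout, and 20 of 26 had an ATAC (76.9%) and 16 of 26 a SMARCA2/4 peak (61.5%), against 73.1 and 46.3% of all genes in decile 8 and 74.3 and 53.9% in decile 9 (median decile 8.5). Smarca2 and Smarca4, the proteins that the antibody recognises, had 307, 314 and 322 CPM and 350.5, 393 and 359 CPM and both peaks. Arid1b had 166, 188 and 164 CPM and a SMARCA2/4 peak only, and Smarcc1 had 127, 122 and 132 CPM and an ATAC peak only. Smarcc2, a core scaffold subunit, was the highest of the list per kb at 78.3 CPM per kb (405, 463 and 437 CPM) and had neither by the annotation, but both kinds of peak lay within 1 kb of its start. Phf10 (68.5, 57.4 and 63 CPM) had none within 3 kb.

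Gene groups of other tissues had few promoter peaks, like other genes of their level. None of 39 Hox genes and none of 36 developmental transcription factors of other tissues had a promoter peak of either kind, against ATAC and SMARCA2/4 shares of 0.93 and 1.12% of all genes with no count and 3.17 and 2.71% of decile 1. Hox promoters are CpG-rich, with a median of 16 CpG here, and their highest member, Hoxa7, had 0.0484, 0.302 and 0.183 CPM. Of 22 germ line genes 1 had an ATAC peak (Dazl), and of 26 liver, pancreas and muscle genes 2 did (Apoa1 and Acta1, the second with SMARCA2/4 as well). Ttr, the thyroxine carrier transthyretin, was the exception in level, with 59.5, 630.1 and 77.2 CPM, so that 1 library put it in the top decile. It had neither peak.

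**Figure D3:**
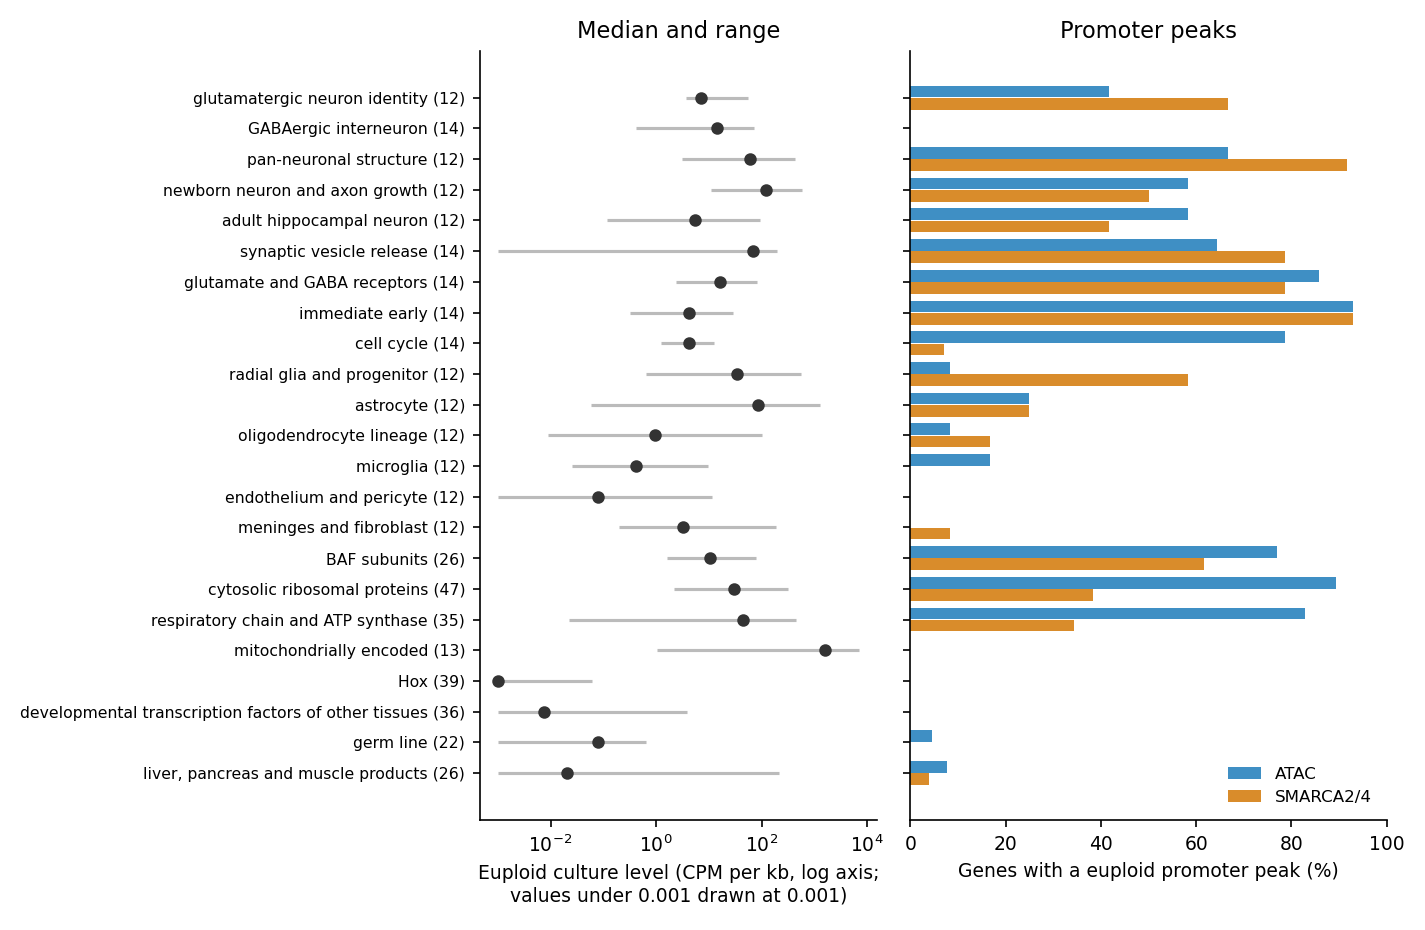
Gene lists (number of genes in brackets) with their euploid culture level as CPM per kb of exon on a log axis (left, median and range) and the share of each list with a euploid promoter ATAC or SMARCA2/4 peak in % (right). GABAergic genes at 14.2 CPM per kb have none, while immediate early genes at 4.17 CPM per kb have 13 of 14 for each mark and cell cycle genes at 4.22 CPM per kb have 11 ATAC and 1 SMARCA2/4.

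In the top decile 232 genes had neither peak, and most of the 10 highest per kb were mitochondrial genes. Of the 10 highest per kb, 7 were encoded by the mitochondrial genome, on which no promoter peak was listed. Whether that genome was left out of peak calling is not stated. For these genes the lack of a peak is therefore not read as a state of chromatin. mt-Cytb had 8365, 7019 and 8492 CPM and mt-Co1 8269, 7348 and 8639 CPM. In these files mt-Co2, mt-Co3, mt-Atp6, mt-Nd3 and mt-Nd4l were at 1.02 to 5.65 CPM per kb, although they come from the same transcripts, so the counted levels of mitochondrial genes are given here only as the files hold them. The other 225 genes were nuclear.

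The highest nuclear genes without a promoter peak, ranked by CPM per kb, were Sparc, a secreted matrix protein, with 5945, 5952 and 6506 CPM, Apoe, and Igfbp2, which binds insulin-like growth factors, with 1482, 1831 and 1369 CPM. They were followed on the same scale by Cst3 (cystatin C, 900.1, 988 and 1085 CPM), Nnat, Mlc1, Tmsb4x (thymosin beta 4, X chromosome, 666, 570.4 and 607 CPM) and Prnp (the prion protein, 1033, 957 and 1029.8 CPM).

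Part of this class depended on how a peak was given to a gene. Of the 232, 49 had an ATAC peak and 28 a SMARCA2/4 peak within 1 kb of their own start. The Ts65Dn ATAC list held a promoter peak for 87 of them (37.5%) and the Ts65Dn;Brwd1+/- list for 83 (35.8%). No peak of either euploid list lay in any annotated region of 96 of them (41.4%).

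A SMARCA2/4 peak without an ATAC peak was found for 218 genes of the top decile. Igfbp5, which binds insulin-like growth factors, had 6019, 6217 and 6469 CPM and was the highest per kb, at 1038 CPM per kb. Vim followed at 570.0 CPM per kb (2384, 2785 and 2940.3 CPM), and Pea15a, an astrocyte phosphoprotein, had 1919.7, 2011 and 2254 CPM. Eef2, the translation elongation factor, had 1624, 1813 and 1599 CPM, and Ubb, a ubiquitin gene, 375, 336 and 331 CPM. Gpm6b, Clstn1 (calsyntenin), Vamp2 and Cadm4 (a cell adhesion molecule) were also among the 10 highest, between 191 and 314 CPM per kb. These genes were thus glial, neuronal and ubiquitous ones. The Ts65Dn ATAC list held a promoter peak for 163 of the 218 (74.8%) and the Ts65Dn;Brwd1+/- list for 152 (69.7%), so most of these promoters were listed as open in a longer list.

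Both peaks were present for 913 genes of the top decile, and an ATAC peak only for 374. The highest with both was Psap, at 1546 CPM per kb with 4221, 4287 and 4216 CPM. Cpe, which processes peptide hormones, had 3057, 2722 and 3049.8 CPM, Scd2, a fatty acid desaturase of brain, 4838, 4239.9 and 4698 CPM, Ptms (parathymosin) 999, 1232 and 1072 CPM and Mt3, the brain metallothionein, 589, 688 and 738 CPM. Their levels overlapped those of the highest genes with neither peak.

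At the other end, 74 genes had no count in any euploid library and yet a promoter peak, 19 with both, 23 with ATAC only and 32 with SMARCA2/4 only. For many the annotation gives a neighbour. At least 90% of the exon bases were shared with another gene for 30 of the 74 (40.5%), against 3.45% of the other no-count genes and 0.26% of genes with a count. An expressed gene (at least 1 CPM) started within 1 kb or overlapped for 37 of the 74 (50.0%), against 5.02% of the other no-count genes. Exosc6, an exosome subunit, had peaks of 4.28-fold (ATAC) and 3.77-fold (SMARCA2/4) and shares 100% of its exon bases with another gene, and Prn shares 96.9%, with Prnp beside it. B430305J03Rik shares 100%, and Fgf20, a growth factor gene, lies beside the start of Micu3.

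Of the 74, 34 had neither such sharing nor such a neighbour. In this group 8 genes lie side by side within 37 kb, at chr9:3000922-3038316 (mm10), and carry predicted-gene names. Their SMARCA2/4 enrichments ran from 1.88-fold to 5.74-fold. No filter for repeats was applied to the peaks here, and whether those of this stretch mark open promoters was not tested. Gm10722 had the highest ATAC enrichment of the 8, 8.98-fold, with a SMARCA2/4 enrichment of 2.69-fold. Others were Zbtb9, a zinc finger gene, with 4.97-fold and 2.91-fold and none of its exon bases shared, and Mogat1, an acyltransferase, with 4.17-fold and 4.52-fold. Hist1h3a and Hist1h2ak encode replication histones, whose RNAs carry no poly-A tail, and had 1 kind of peak each.

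The X chromosome carried almost no SMARCA2/4 peaks at promoters, in a tissue taken from males, who have 1 X. Among genes of deciles 6 to 10, 9 of 292 X-linked genes (3.08%, interval 1.63 to 5.75) had a SMARCA2/4 promoter peak, against 4239 of 8374 autosomal genes (50.6%, 49.6 to 51.7). For ATAC the shares were 143 of 292 (49.0%, 43.3 to 54.7) and 6020 of 8374 (71.9%, 70.9 to 72.8). With only peaks of q under 0.001 the SMARCA2/4 shares were 0.34% on X and 26.6% on autosomes. Both gaps are wider than the intervals, and the SMARCA2/4 gap is by far the larger. In the top decile 34 of 62 X-linked genes had an ATAC peak and 5 of 62 (8.06%) a SMARCA2/4 peak, against 75.1 and 67.5% of autosomal genes.

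The counts over all peaks, promoter or not, were as uneven. In the whole euploid SMARCA2/4 list 33 of 22667 peaks (0.146%) were on X, and single autosomes held between 761 and 2102. In the ATAC list 240 of 15521 (1.55%) were on X, and autosomes held 422 to 1213. In the Ts65Dn and Ts65Dn;Brwd1+/- SMARCA2/4 lists 11 (0.853%) and 13 (0.694%) peaks were on X, and in their ATAC lists 479 (1.64%) and 412 (1.36%). In deciles 6 to 10 the median number of promoter CpG was 16 on X and 22 on autosomes. Among promoters of these deciles with at least 15 CpG, 3.12% of 160 X-linked and 51.2% of 6298 autosomal genes had a SMARCA2/4 peak.

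A SMARCA2/4 promoter peak was found for 14 of all 948 X-linked genes, of which 5 were in the top decile. The highest were Gpm6b (a membrane glycoprotein of neurons and glia, 1977, 1529 and 1777 CPM), Tspan7 (a tetraspanin of neurons), Syp (synaptophysin, 560.2, 574 and 454 CPM) and Wdr13. Gpm6b and Pja1, a ubiquitin ligase, had no ATAC promoter peak, and Tspan7, Syp and Wdr13 had both. Where an X-linked promoter did have an ATAC peak, its enrichment was like that of autosomal ones, with medians of 4.81-fold and 4.60-fold in deciles 6 to 10. The part of the single X in these counts was not tested.

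**Figure D4:**
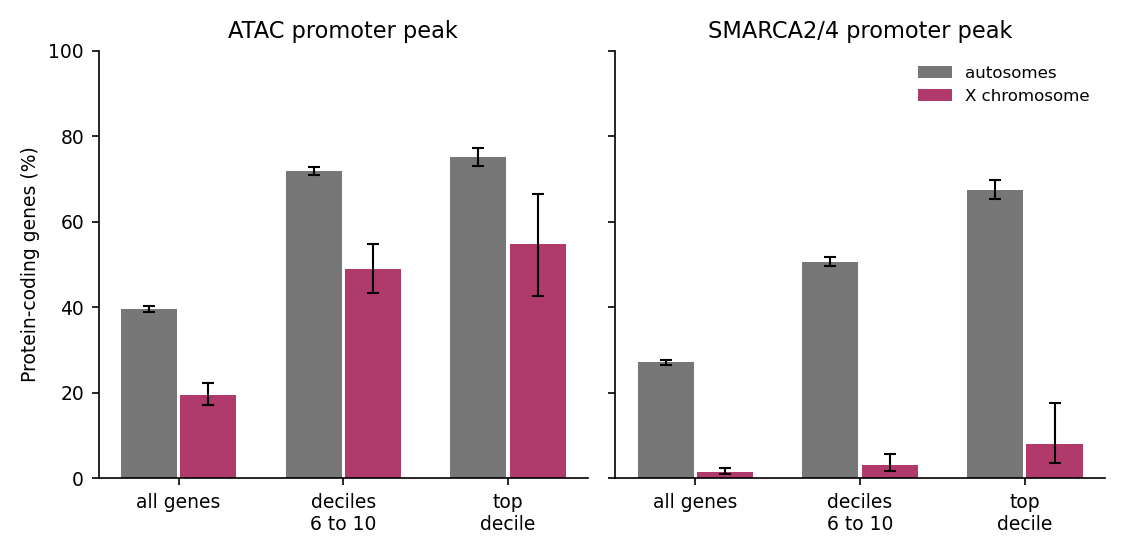
Share of X-linked and autosomal protein-coding genes with a euploid promoter ATAC or SMARCA2/4 peak (%, bars from 0, with 95% Wilson intervals), for all genes, for deciles 6 to 10 and for the top decile. In deciles 6 to 10 the SMARCA2/4 bar stands at 3.08% for X and 50.6% for autosomes.

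The promoter classes were also described in the contrast of Ts65Dn against euploid cultures. Its reference libraries are the 3 that set the deciles, so a gene ranked high by them leans to lower in Ts65Dn and a gene ranked low to higher, and the direction counts by decile depend on that choice. In edgeR's quasi-likelihood test with Benjamini-Hochberg adjustment, 7264 of 14259 protein-coding genes tested passed (50.9%), 27.9% higher and 23% lower in Ts65Dn. Over all 17173 gene lines tested 46.7% passed, 25.6% higher and 21.1% lower. The balance turned along the ranking, with 620 higher and 305 lower in decile 4 and 351 and 721 in decile 10, both tested whole, where 1072 of 1737 passed (61.7%). No direction is read from the place of a gene in the ranking. In bulk cultures, fewer cells of a type and less RNA per cell cannot be told apart. Nothing in the labels says whether the 3 libraries of a genotype came from separate cultures, so p-values measure the spread between these libraries, which may be technical.

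The balance of direction was unlike in the classes of the top decile. With both peaks 580 of 913 passed, 145 higher and 435 lower in Ts65Dn, and with ATAC only 188 of 374, 66 higher and 122 lower. With SMARCA2/4 only 150 of 218 passed, 48 higher and 102 lower. With neither, 154 of 232 passed and the balance was the other way, 92 higher and 62 lower. The median log2 differences were −0.22, −0.07, −0.20 and 0.06. The difference between classes was not tested. The cell type lists, which are spread unevenly over the classes, moved as follows, and their part in these counts was not tested.

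Most genes of the neuronal lists were lower in the Ts65Dn cultures, and most of the astrocyte, meningeal and cell cycle lists higher. In the GABAergic list, which had no adult promoter peak, 14 of 14 passed, 1 higher and 13 lower, with a median log2 difference of −1.60. The glutamatergic list had 10 of 12, all lower (−1.30), the synaptic vesicle list 13 of 13, all lower (−1.22), and the newborn neuron list 11 of 12, all lower (−0.83). The cell cycle list had 14 of 14, all higher (0.58), the astrocyte list 9 of 11, 7 of them higher (0.73), and the meningeal list 12 of 12, 9 of them higher (1.23). The immediate early list had 9 of 14, 7 higher and 2 lower (0.37), and the ribosomal list 12 of 47, all higher (0.13). Of the other lists, radial glia had 11 of 12, 7 higher and 4 lower, the BAF subunits 16 of 26, 8 each way, and the adult hippocampal list 8 of 11, all lower. The oligodendrocyte list had 4 of 10, 3 higher and 1 lower, and the microglial list 3 of 7, 1 higher and 2 lower (median −0.51). Developmental factors of other tissues had 9 of 11 tested, 7 higher and 2 lower (1.83), and the endothelial list 4 of 7, all higher. The germ line list had 4 of 11, all lower, and the respiratory list 5 of 34, 1 higher and 4 lower. Of all protein-coding genes tested, 50.9% passed, 27.9% higher and 23% lower, with a median log2 difference of 0.04. These shares are the background for each list count. Genes that fell thus included both synaptic genes, most of which had an adult promoter peak, and GABAergic genes, none of which had.

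Single genes without a promoter peak changed in both directions. Gad1 was at 71.5, 56.9 and 34.7 CPM in Ts65Dn, all below the euploid libraries (log2 difference -1.68, SE 0.21, adjusted p = 0.000255 by edgeR). Sv2b, a synaptic vesicle protein, was at 171, 147 and 119 CPM in euploid and 74.7, 50.4 and 14.7 CPM in Ts65Dn (log2 difference -1.61, SE 0.44, adjusted p = 0.0129). A2m, the protease inhibitor alpha-2-macroglobulin, went the other way, from 168, 147 and 183 CPM to 1263, 1240.5 and 1584 CPM (log2 difference 3.06, SE 0.15, adjusted p = 7.37e-07). Eln (elastin) rose from 363, 549.7 and 438 CPM to 1867, 2983 and 2934 CPM (log2 difference 2.55, SE 0.22, adjusted p = 2.14e-05), and Lrp2 (megalin) from 153, 149 and 153 CPM to 613, 853 and 932 CPM (log2 difference 2.42, SE 0.17, adjusted p = 5.85e-06). These genes were chosen as the largest changes, so the separation of their groups follows from the choice.

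Sparc, Apoe and Igfbp2, the highest nuclear genes without a peak, all rose. Igfbp2 rose most, to 5399, 8423 and 8750.2 CPM (log2 difference 2.30, SE 0.20, adjusted p = 2.16e-05 by edgeR). Sparc reached 9632, 11316 and 12072 CPM (log2 difference 0.87, SE 0.14, adjusted p = 0.00113) and Apoe 4691, 4046 and 4758 CPM (log2 difference 0.73, SE 0.11, adjusted p = 0.000748). Gap43 and Nnat, of the same class, fell, Gap43 to 330.3, 283 and 93.5 CPM, with the third Ts65Dn library well below the others (log2 difference -1.20, SE 0.36, adjusted p = 0.0206). Without euploid replicate 1 or 2 Gap43 no longer passed, at log2 differences of −1.19 and −1.15 with fewer libraries. Ttr was at 12.9, 14.3 and 11.2 CPM in Ts65Dn (log2 difference -4.31, SE 0.90, adjusted p = 0.00365), against euploid libraries of which 1 was far above the rest. Without that library, euploid replicate 2, the log2 difference was −2.38, and with all libraries it did not pass with DESeq2. The mitochondrial genes mt-Cytb and mt-Co1 did not pass (adjusted p = 0.89 and 0.731).

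Among genes with a SMARCA2/4 peak only, Tbkbp1, an adaptor of the kinase TBK1, fell from 236, 337 and 120.1 CPM to 45.7, 71.8 and 60.4 CPM (log2 difference -1.94, SE 0.42, adjusted p = 0.00414 by edgeR). Wls, which carries Wnt proteins to the cell surface, rose from 344, 299 and 351 CPM to 1163, 1178 and 1394 CPM (log2 difference 1.94, SE 0.14, adjusted p = 8.71e-06). Timp3, an inhibitor of matrix proteases, rose from 489, 487 and 518 CPM to 954, 1304 and 1315 CPM (log2 difference 1.29, SE 0.15, adjusted p = 0.000143), and Plekhg2, a guanine nucleotide exchange factor, from 130.1, 172 and 158 CPM to 304, 449.9 and 509 CPM (log2 difference 1.48, SE 0.19, adjusted p = 0.000239). Vim rose (log2 difference 1.08, SE 0.15, adjusted p = 0.000404) and Vamp2 fell (log2 difference -0.65, SE 0.11, adjusted p = 0.00152), with the third Ts65Dn library of Vamp2 lowest. Psap, the highest gene with both peaks, was at 4125, 4138 and 4626 CPM in Ts65Dn and did not pass (adjusted p = 0.718).

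**Figure D5:**
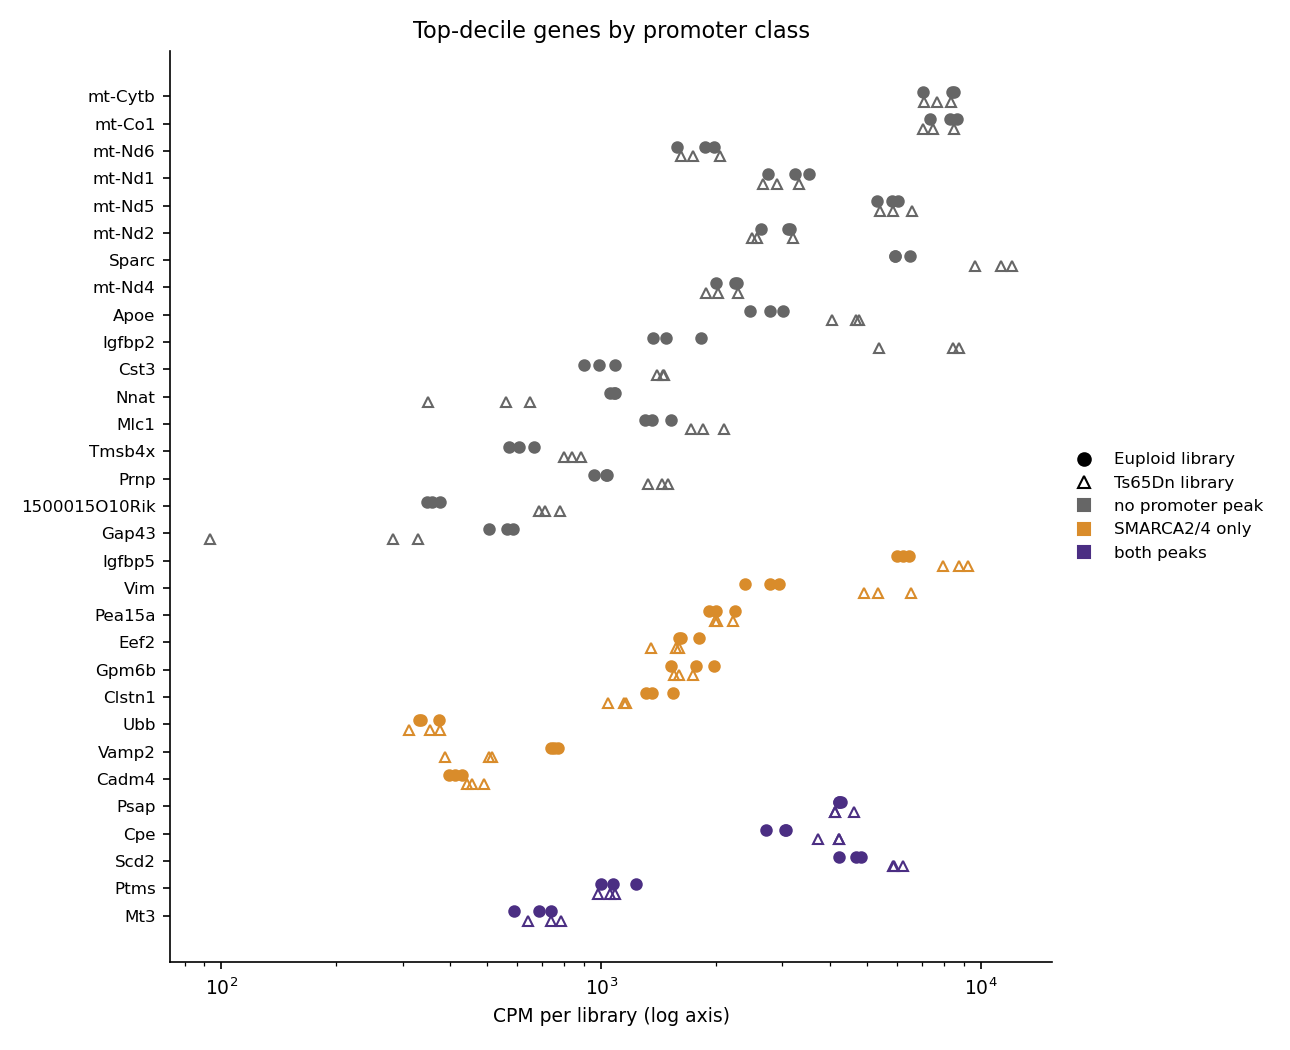
CPM per library (log axis) of top-decile genes with high levels in 3 promoter classes, in 3 Euploid libraries (filled circles) and 3 Ts65Dn libraries (open triangles). Mitochondrial genes and Psap overlap between the groups, Sparc, Apoe, Igfbp2 and Vim are higher in every Ts65Dn library, and Gap43, Nnat and Vamp2 are lower in every one.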

How the data were processed

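RNA-seq of 9 culture libraries (3 per genotype) and 1 peak list per genotype for SMARCA2/4 ChIP-seq and for neuronal ATAC-seq were used. The authors aligned reads to mm10 with HISAT2 and deposited raw counts per gene, not normalised. They name featureCounts with an Ensembl annotation, while the files end in 5 summary lines of the kind htseq-count writes. These lines, which name no gene, took 37.4 to 40.0% of counts and were left out. Strand use is not stated for these libraries, so overlapping genes may not be told apart. The authors removed duplicates, called peaks with MACS and annotated regions with diffReps. Each deposited peak carries a fold enrichment (a linear ratio over background) and a q-value, and the depth of the ChIP-seq and ATAC-seq libraries is unknown here.

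CPM was computed as counts over all gene counts of a library. Of the gene lines, 99.7% were in the annotation (GENCODE, mm10), which gave gene class, exons and starts, and peaks were joined to genes by the transcripts and gene names in the deposited lists. Python 3.11.15, pandas 2.3.3 and scipy 1.17.1 were used. The Ts65Dn contrast used edgeR 4.0.16 (R 4.3.3) with TMM scaling on 17173 gene lines, all 9 libraries in 1 fit, genotype as the only factor, and a threshold of 0.05 on the adjusted p, and DESeq2 1.42.0 as an alternative. Tested on simulated data (16661 genes, 200 of them changed), the edgeR step recovered 80% of 2-fold and 47% of 1.5-fold changes. The changed genes were drawn from those above a minimum count, and were far fewer than the 46.7% of gene lines that passed in the data. These rates therefore do not describe the contrast itself. Euploid and Ts65Dn cultures of the same replicate number deviated together from their group means (correlations 0.129, 0.206 and 0.263, each the highest for its number). The labels state no pairing, and with 3 libraries per group this order can arise without a pairing. The printed values are therefore from the unblocked fit, and a fit with the replicate number as a block was run beside it.

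Genes were named by rule: the 10 highest per kb of the top decile with neither peak, the same with SMARCA2/4 only, the 5 highest with both, the no-count genes with the strongest peaks, up to 4 genes per list (first those whose class differs from most of the list), and the largest changes in each direction in Ts65Dn. Others, among them Fos, Cox6a1, Gad2, Rab3a, Smarca2, Smarca4, the nuclear genes after the first 10, the further list members given by class and the X-linked genes, were chosen after their values were seen. The lists were written for this work, and they and the members were chosen with earlier results of these data known. Columns of the trisomic ChIP-seq and ATAC-seq lists entered only as further promoter calls. A few genes that this rule names are not reported here.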

Additional observations from a re-analysis of the deposited data

How the results depend on the processing

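The SMARCA2/4 share was highest in decile 10 in the settings for which all deciles were computed (CPM, CPM per kb, the proximal promoter alone and peaks within 1 kb), and the X-linked share stayed below the autosomal one in every alternative that gave both. The levels moved with how a peak was given to a gene. The top-decile ATAC share (74.1%) was 78.0% for genes named in a list in any region, 66.0% with the proximal promoter alone, 78.3% and 80.6% with peaks within 1 and 3 kb of the start, and 78.0% with the peak's centre. The top-decile SMARCA2/4 share (65.1%) was 57.0% with CPM per kb, 62.8% with groups over all genes, 71.2% for named genes, 41.9% with the proximal promoter alone, 61.7% with the promoter within 1 kb, 61.8% at a q-value under 0.05 and fold over 1.2, 38.8% at q under 0.001, 69.6% within 3 kb and 67.4% without mitochondrial and X genes. The share with both (52.6%) was, in the same order, 45.9% per kb, 57.6% named, 30.7% proximal, 49.0% within the 1 kb promoter, 49.9% and 32.0% at the q filters, and 56.0, 60.1 and 55.6% by distance of 1 kb, 3 kb and the centre. The share with neither (13.4%) was 16.4% per kb, 8.39% named, 22.8% proximal, 15.1% within the 1 kb promoter, 19.2% at q under 0.001, and 11.6, 9.90 and 11.7% by distance.

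Among no-count genes the ATAC share (0.93%) was 19.5% for named genes, 0.44% proximal, 0.64% within the 1 kb promoter, 1.81, 2.51 and 1.72% by distance, and 0.60% without genes that share at least 50% of their exon bases. The SMARCA2/4 share (1.12%) was 23.7% named, 0.51% proximal, 0.84% within the 1 kb promoter, 0.49% at q under 0.001, 2.01% within 3 kb and 0.67% without exon sharing. For genes of deciles 6 to 10, the X-linked SMARCA2/4 share (3.08%) was 0.34% at q under 0.001. The autosomal share (50.6%) was 46.6% with groups over all genes, 57.4% named, 32.9% proximal, 47.9% within the 1 kb promoter, 47.4 and 26.6% at the q filters, and 52.5, 55.8 and 52.2% by distance. No value could be had for no-count genes with groups over all genes, or for X without X genes.

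Leaving out 1 euploid replicate gave top-decile shares of 73.96 to 74.40% (ATAC), 64.85 to 65.48% (SMARCA2/4), 52.67 to 52.82% (both) and 13.28 to 13.42% (neither), no-count shares of 1.00 to 1.10% and 1.12 to 1.30%, and X and autosomal shares of 3.11 to 3.15% and 50.73 to 50.91%. In the Ts65Dn contrast 8017 gene lines passed, 8349 with the replicate block, and 6667 to 8349 over all alternatives. The block moved no count by over 1.5 times. The filters without mitochondrial and X genes and without exon sharing were chosen after seeing the data. Of 44 named genes tested, 3 lost their call in some alternative (Gap43, Clstn1 and Ttr), and no gene that had passed changed sign. Some that had not passed, with differences near 0, did. Peak lists pooled per genotype, of unknown depth, limit all shares of promoters.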
